A study of Mus musculus with 192 samples.

Results

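The miR-148 and miR-152 family consists of 3 mature mouse miRNAs, mmu-miR-148a-3p, mmu-miR-148b-3p and mmu-miR-152-3p (given below without the prefix), which share a seed. They were taken by name from the tables of the cortex, heart and lungs of fentanyl-treated SKH-1 mice, where they are 3 of the 1960 mature miRNAs listed for each tissue. The family was chosen by a measured value: with earlier results of these data known, the dose by time pattern of miR-152-3p in the lungs led to the choice. For miR-152-3p in the lungs, levels, fold changes and standard errors are therefore given as a description, with no test.

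A mature miRNA guides Argonaute proteins to messenger RNAs, mainly by pairing of its seed, the bases 2 to 8 from the 5′ end, and the bound mRNAs are then repressed or degraded. miRNAs with the same seed can bind many of the same sites, so the level of a family is read together with the balance of its members. In human cells, members of this family are known to repress DNMT1 and DNMT3B, enzymes that methylate DNA, and HLA-G, a molecule that restrains immune cells. Each member is cut from a hairpin precursor together with a partner from the 5′ arm, the 5p strand, which is usually the less abundant of the pair.

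The 3 members are shown here because their shared seed defines the family and the bases behind it tell them apart. The sequences are those of RefSeq (GRCm38.p6), 5′ to 3′, with the seed in capitals.
miR-148a-3p: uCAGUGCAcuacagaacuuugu
miR-148b-3p: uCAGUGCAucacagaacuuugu
miR-152-3p: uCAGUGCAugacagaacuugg
Of the 1679 mature mouse miRNAs in the RefSeq table, 3 hold the seed CAGUGCA at bases 2 to 8, and these are the family members. Counted from base 1 at the 5′ end, miR-148a-3p and miR-148b-3p have the same length of 22 bases and differ by C9U and U10C. From miR-148a-3p to miR-152-3p, which is 21 bases long, the substitutions are C9U, U10G and U20G. From miR-148b-3p to miR-152-3p they are C10G and U20G. The aligner was described as allowing a pair of mismatches, stated after the mapping to the genome and not separately for the mapping to mature miRNAs, so some reads of these near-identical miRNAs could have been assigned to another member.

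The partner strands are shown because the ratio of the 3p to the 5p strand of the miR-152 hairpin is described in the lungs below. The seed is again in capitals.
miR-148a-5p: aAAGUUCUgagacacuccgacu
miR-148b-5p: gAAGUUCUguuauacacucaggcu
miR-152-5p: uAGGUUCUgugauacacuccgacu
The 5p strands of miR-148a and miR-148b share the seed AAGUUCU, whereas miR-152-5p has AGGUUCU. In the NCBIM37 (mm9) annotation, Mir148a lies on chromosome 6 (51219811 to 51219909, minus strand) outside any annotated gene. Mir148b lies on chromosome 15 (103115556 to 103115652, plus strand) in an intron of Copz1, and Mir152 on chromosome 11 (96711707 to 96711779, plus strand) in an intron of Copz2. Copz1 and Copz2 encode the 2 forms of the zeta subunit of the COPI coat, found on vesicles that return from the Golgi to the endoplasmic reticulum.

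The study asked which miRNAs change in tissues after a single exposure to fentanyl, an opioid. Adult male SKH-1 Elite mice, a hairless strain, received fentanyl citrate under the skin at 62 mg/kg (HNLD), 110 mg/kg (LD10) or 135 mg/kg (LD50), or 200 uL of vehicle alone (sham), and were killed at 0 h (40 min after the injection), 6 h, 24 h or 7 days. Each of the 16 groups of dose and time held 4 mice, 64 in all, and no mouse gave samples at more than 1 time. HNLD is the study's term for the 62 mg/kg dose, which the sample labels call the lowest observed effect level. Of the 192 samples in the labels, the small RNA libraries of 63 cortices, 64 hearts and 63 lungs were analysed. The cortex of the sham mouse FP91 (24 h) and the lung of the LD50 mouse FP61 (7 days) were not analysed here, so that those groups held 3 libraries. The column of the heart of FP91 carries LD10 in its name, and the sample label, which says control, was used.

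Values are the deposited normalized values, reads divided by 1 factor per library (TMM), with the tables of the tissues scaled separately. Total reads were 1775669 to 8381425 per library in the cortex (median 4498628), 215163 to 5355085 in the heart (median 2036132) and 196853 to 6540900 in the lungs (median 3863362). Behind the members stood 4257 to 41362 reads for miR-148a-3p, 1176 to 7607 for miR-148b-3p and 57 to 1260 for miR-152-3p in a cortex library. In the heart the reads numbered 3295 to 89684, 106 to 2736 and 36 to 943 in the same order, and in the lungs 1045 to 63350, 123 to 4340 and 27 to 1363. All members passed the filter on low values in each tissue (at least 10 in at least 4 libraries), with 482 of 1960 miRNAs tested in the cortex, 320 in the heart and 371 in the lungs.

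Several libraries stood apart or went against their tissue labels. In the cortices of the sham mice FP85 (6 h) and FP96 (0 h), all 5 neuronal marker miRNAs were above 0, but their summed values were 678 and 496, against 52713 to 169636 in the other cortices. Markers of smooth muscle and fibroblasts summed to 245035 to 264061 in them, against 8447 to 26929. Endothelial markers summed to 101989 to 118379, against 5017 to 10178. Summed markers of red blood cells, leukocytes, epithelium and muscle were also above those of all other cortices, and those of multiciliated cells overlapped. The heart of the HNLD mouse FP38 (6 h) had a summed muscle marker value of 4317, against a median of 118481 over the hearts, and the lung of the same mouse had 159286, the highest of the lungs. The log2 ratio of miR-148a-3p to miR-148b-3p was 3.13 in the heart library of FP38 and 4.57 in its lung library. In sham mice its mean was 4.75 in hearts and 3.01 in lungs. The labels were kept, and whether these libraries of FP38 were exchanged was not tested. The cortex of FP24 (HNLD, 7 days) and the heart of FP92 (sham, 24 h) also stood apart, as did the lungs of FP30 and FP33.

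In the lungs, 7 libraries formed a set of their own, those of the mice FP91 to FP96 and FPB2. FP91 to FP94 were the sham mice at 24 h, FP95 and FP96 were 2 of the 4 sham mice at 0 h, and FPB2 was an LD10 mouse at 6 h. They held 500457 to 815001 reads, and their summed epithelial markers were 14865 to 19686, against 987 to 9916 in the other 56 lungs. Summed red blood cell markers were 19382 to 32519 in them, against 27913 to 167068. Summed markers of leukocytes, multiciliated cells, muscle, endothelium, smooth muscle with fibroblasts, and neurons overlapped between these lungs and the others. Lung levels and the main contrasts of fentanyl with sham are given below with and without these 7 libraries. Some balances of the members are given only with them. Without them no sham lung was left at 24 h. The sets of mouse numbers used below, FP16 to FP58, FP59 to FP88 and these 7, were defined after values had been seen, and the labels give no batch for them.

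miR-148a-3p was the leading member in every library, miR-148b-3p came next in 183 of the 190 libraries, and miR-152-3p was the scarcest in those. The 7 exceptions were the lungs of FP91 to FP96 and FPB2, where miR-152-3p exceeded miR-148b-3p. In the cortex the lowest, median and highest normalized values of miR-148a-3p were 2041, 4494 and 9373. Those of miR-148b-3p were 564, 930.4 and 1248, and those of miR-152-3p were 23.6, 40.9 and 320.0. The 2 highest cortex values of miR-152-3p belonged to FP96 and FP85, and without these and FP24 the highest was 59.9.

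In the heart the values of miR-148a-3p were 3874, 13419 and 19969 (lowest, median, highest), and those of miR-148b-3p were 381, 496 and 699. miR-152-3p ranged from 104.7 to 243 with a median of 189. The lowest heart value of miR-148a-3p was that of FP38, and without FP38 and FP92 the lowest was 8268. In the lungs miR-148a-3p had a lowest value of 2307, a median of 5880 and a highest of 16741, the last again from FP38. miR-148b-3p ranged from 289 to 863 (median 646), and miR-152-3p from 112 to 1241 (median 209). Without the 7 libraries the lung values of miR-152-3p ended at 298.5, so that the 2 sets of lungs did not overlap.

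**Figure D1:**
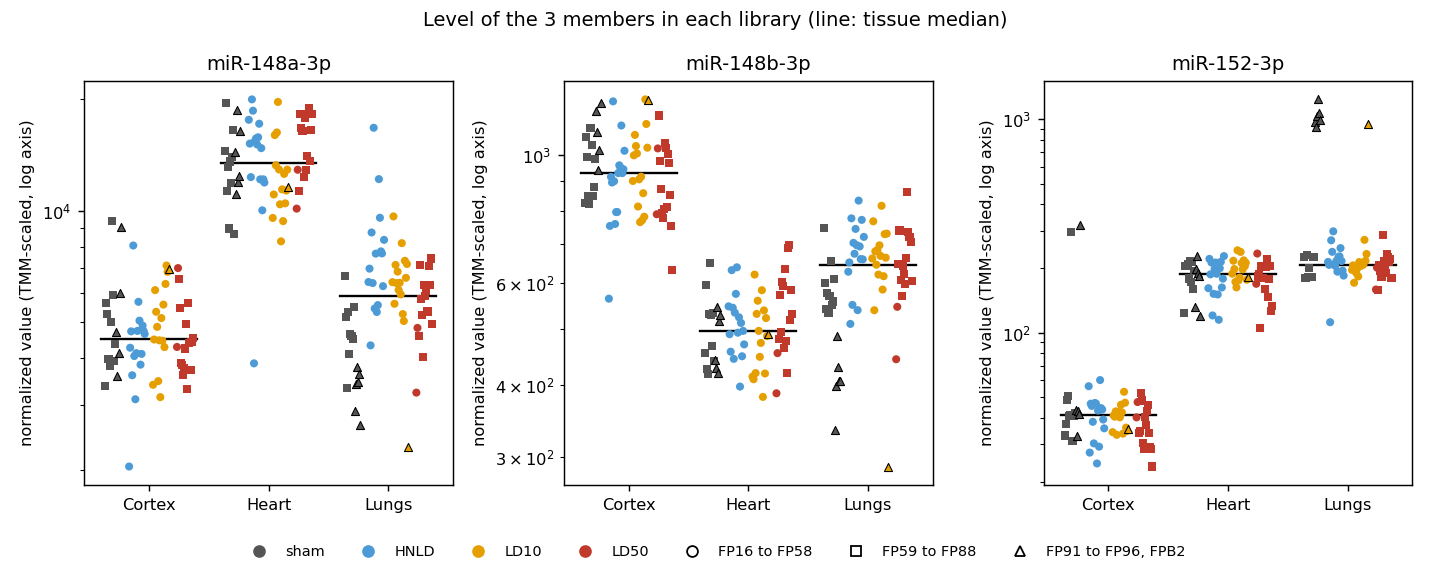
Normalized value (log axis) of miR-148a-3p, miR-148b-3p and miR-152-3p in every library of the cortex, heart and lungs, colored by dose, with the marker giving the mouse number set and the line the tissue median. miR-148a-3p lies highest throughout, and the lungs of FP91 to FP96 and FPB2 (triangles) lie apart in miR-152-3p, between 924 and 1241.

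As a share of all miRNA reads in a library, which does not depend on the scaling of the tables, the family took a median of 0.562% in the cortex (0.313 to 0.979%), 1.41% in the heart (0.530 to 2.19%) and 0.664% in the lungs (0.366 to 1.49%). The balance within the family differed by tissue. miR-148a-3p made up a median of 82.8% of the family in the cortex, 95.1% in the heart and 87.5% in the lungs. miR-148b-3p made up 16.5%, 3.51% and 9.13%, and miR-152-3p 0.697%, 1.40% and 2.98%. In the 7 lungs that stood apart miR-152-3p rose to a median of 23.2% of the family (19.5 to 26.8%), and in the other 56 it was 2.95% (1.68 to 5.77%).

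These balances were compared between tissues of the same sham mice with exact two-sided sign-flip permutation tests, adjusted over 5 comparisons. The 4 comparisons that use miR-152-3p in the lungs have no test, since those values led to the choice of the family. Of the 5, 4 were called at 0.05. The mean log2 ratio of miR-148a-3p to miR-148b-3p was 2.33 ± 0.38 (SD, n = 15) in the cortex and 4.73 ± 0.31 in the hearts of the same mice, and it was lower in the cortex in 15 of 15 mice (difference -2.40, SE 0.13, adjusted exact permutation p = 0.00015). The lungs stood between them. Their ratio was 3.01 ± 0.17 (SD, n = 16), lower than in the heart in 16 of 16 mice (difference heart minus lungs 1.74, SE 0.08, adjusted exact p = 0.00015) and higher than in the cortex in 13 of 15 (cortex minus lungs -0.67, SE 0.12, adjusted exact p = 0.00069). The exceptions were FP85 (cortex 3.17, lung 2.81) and FP96 (cortex 2.88, lung 2.70), the cortices with few neuronal reads, which the cortex mean and SD include. Among the sham lungs the log2 ratio of miR-148a-3p to miR-148b-3p was 2.70 to 3.16 in FP91 to FP96 and 2.62 to 3.21 in the others. These libraries are of whole tissue, so fewer cells of a type and less RNA per cell cannot be told apart.

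miR-152-3p was scarcer relative to miR-148b-3p in the cortex than in the heart. The log2 ratio of miR-148b-3p to miR-152-3p was 4.23 ± 0.98 (SD, n = 15) in the cortex, with FP85 and FP96 included. It was higher there than in the heart in 14 of 15 mice, all but FP96 (difference 2.80, SE 0.31, adjusted exact permutation p = 0.0002). The comparison of miR-148a-3p with miR-152-3p between cortex and heart was the 1 that missed the threshold (difference 0.40, SE 0.26, higher in the cortex in 11 of 15 mice, adjusted exact p = 0.14), and without the libraries that stood apart it was called (0.71, adjusted exact p = 0.0024), as it was without FP96 alone (0.59, adjusted exact p = 0.010).

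Between heart and lungs the ratio of miR-148b-3p to miR-152-3p, described with no test, differed by 0.95 (SE 0.38) and was higher in the heart in 10 of 16 mice. Without the libraries that stood apart, most of them sham lungs, the difference was -0.16. The ratio of miR-148a-3p to miR-152-3p was higher in the heart than in the lungs in 16 of 16 mice (difference 2.70, SE 0.41), also with no test.

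In the cortex limma called no member for dose, time, their interaction or any contrast of fentanyl with sham. The background was also low: 5 of 482 miRNAs were called for dose (1.04%), 0% for the interaction, 0% at 0 h, 6 h or 24 h, 2.49% at 7 days and 1.66% over all times (limma, adjusted p under 0.05). At an unadjusted p under 0.05, 207 of the 482 passed at 0 h and 195 at 6 h. Averaged over doses and times, miR-148a-3p differed between fentanyl and sham by -0.10 (log2, SE 0.11, limma adjusted p = 0.48) and miR-148b-3p by -0.12 (SE 0.08, adjusted p = 0.20). miR-152-3p differed by -0.41 (SE 0.17, adjusted p = 0.11), and this was called without FP77, FP86, FP87 or FP95 (limma, lowest adjusted p = 0.043). miR-148a-3p at 6 h was at -0.28, ran from -0.54 to -0.05 without any 1 library, and was called without FP77 (limma adjusted p = 0.046).

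miR-152-3p gave the cortex values farthest from 0, and they followed single libraries. At 0 h its sham values were 40.9, 42.2, 41.5 and 320.0, and at 6 h 32.9, 37.2, 296 and 31.1, with the high value of each time from FP96 and FP85. The contrast of fentanyl with sham was -0.85 (SE 0.34) at 0 h and -0.76 (SE 0.34) at 6 h (limma adjusted p = 0.086 and 0.11). Without FP85, FP96 and FP24 the values were -0.12 (SE 0.17) and 0.02 (SE 0.17). Leaving out 1 library also moved the calls. Without FP85 the value at 0 h stayed at -0.85 and was called (limma adjusted p = 0.012), and without FP96 the value at 6 h stayed at -0.76 and was called (adjusted p = 0.024). Without FP87, FP88 or FP95 the value at 0 h was called, and without FP77, FP78 or FP86 that at 6 h. The count model of edgeR, run on the recovered reads of all libraries, called both contrasts (-1.77 and -1.83, edgeR adjusted p = 0.00037 and 0.00025) beside 20.1% and 20.7% of all miRNAs tested. In FP85 and FP96 miR-148a-3p was also the highest of the cortices, at 9373 and 9055.

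In the heart no member was called in any contrast, with limma, edgeR or DESeq2. The background in limma was 0% of 320 miRNAs for dose, time, their interaction and the 3 doses together against sham at each time, with 7 to 19 miRNAs at an unadjusted p under 0.05 at the single times. edgeR called 6 of the 320 at 24 h and DESeq2 10, all lower after fentanyl, and both called 0 at the other times. HNLD against sham at 6 h, the group with FP38, had 7.19% of miRNAs called (limma). Over all times the fentanyl and sham hearts differed by 0.03 for miR-148a-3p (log2, SE 0.11), 0.05 for miR-148b-3p and 0.02 for miR-152-3p (SE 0.08). At the single times miR-148a-3p lay between -0.24 (6 h) and 0.22 (0 h, SE 0.22), and the value at 6 h was -0.06 (SE 0.17) without FP38 and FP92. miR-148b-3p lay between -0.06 and 0.18, and miR-152-3p between -0.09 and 0.16.

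In the lungs of all 63 mice, miR-148a-3p and miR-148b-3p were higher after fentanyl than in sham at 24 h. The 4 sham values of miR-148a-3p at 24 h were 2876, 3413, 3788 and 3457. Those after HNLD were 5448, 7671, 6259 and 8344, those after LD10 were 5609, 6109, 7326 and 7182, and those after LD50 were 5765, 5222, 4031 and 6308. All 12 fentanyl lungs lay above all 4 sham lungs, and the mean difference was 0.87 on the log2 scale (SE 0.23, 1.83-fold higher, limma adjusted p = 0.0019). All 4 sham lungs of this time belong to the set of 7 libraries that stood apart, so fentanyl and library set cannot be told apart at 24 h.

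miR-148b-3p had sham values of 334, 398, 485 and 429 at 24 h, also all below the 12 fentanyl values of 539 to 772. The difference was 0.68 (SE 0.15, 1.60-fold higher, limma adjusted p = 0.00033). Of the 371 miRNAs tested in this contrast 46.1% were called, 26.7% as higher and 19.4% as lower, and in 15.4% all fentanyl lungs lay above all sham lungs. The median of all miRNAs was itself 0.20 higher after fentanyl. Scaled by DESeq2's size factors, which put this median at 0.05, 70 miRNAs were called as higher and 84 as lower in place of 99 and 72, and the members differed by 0.72 (miR-148a-3p) and 0.52 (miR-148b-3p).

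For the term of dose, miR-148a-3p and miR-148b-3p were called (limma adjusted p = 9e-05 and 0.0036) beside 34.5% of all miRNAs, and neither was called for time (background 1.35%) or for the interaction (adjusted p = 0.63 and 0.35, background 9.43%). Averaged over the times, miR-148a-3p was 1.52-fold higher after fentanyl (log2 difference 0.60, SE 0.12, limma adjusted p = 5.2e-05) and miR-148b-3p 1.26-fold higher (0.33, SE 0.08, adjusted p = 0.00049). In that contrast 33.7% of miRNAs were called, 17.3% as higher. At 0 h the differences were 0.63 (SE 0.23) and 0.42 (SE 0.15), with limma adjusted p = 0.059 and 0.057, beside 13.7% of miRNAs called. Both were called without FP29, FP30, FP88 or FPB2, miR-148a-3p also without FP38 or FP45, and miR-148b-3p also without FP42, FP67 or FP87 (limma adjusted p of 0.014 or more). At 6 h they were 0.29 and -0.03, and at 7 days 0.63 and 0.28, with 0% of miRNAs called at either time and 35 and 24 miRNAs at an unadjusted p under 0.05.

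**Figure D2:**
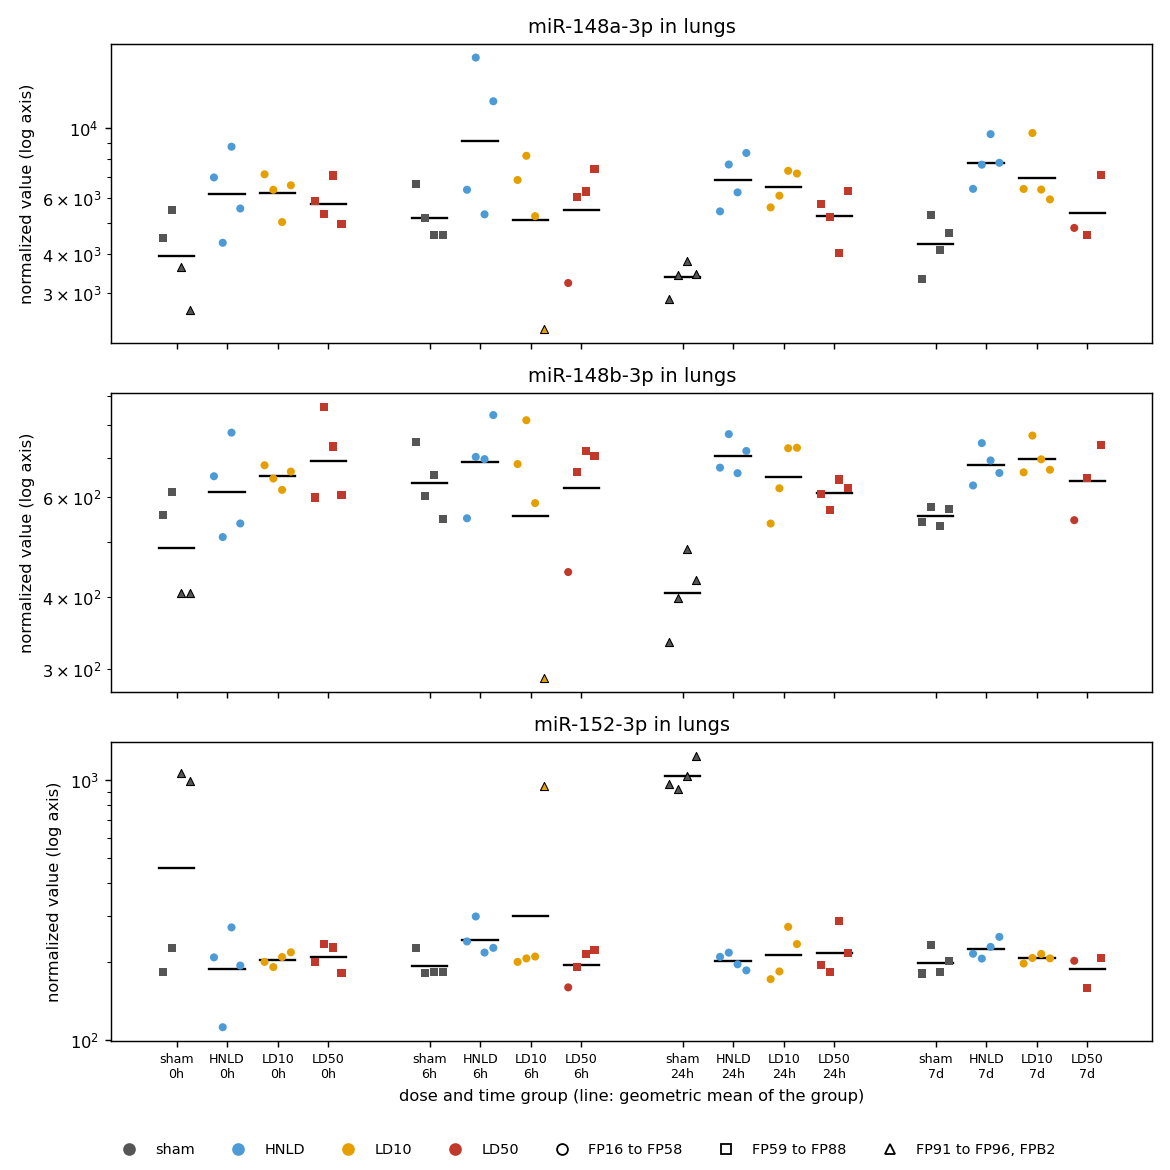
Normalized value (log axis) of the 3 members in the lungs of the 16 groups of dose and time, 1 point per library, with a line at the geometric mean of each group. The sham lungs at 24 h are the lowest group for miR-148a-3p and miR-148b-3p and the highest for miR-152-3p, and 2 of the 4 sham lungs at 0 h lie with them.

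miR-152-3p moved the other way in the same lungs. At 24 h its 4 sham values were 969, 924, 1039 and 1241, against 171 to 286 in the 12 fentanyl lungs, a difference of -2.30 (SE 0.28) or 4.93-fold lower after fentanyl. At 0 h the sham lungs split. FP87 and FP88 had 182 and 226, inside the range of the 12 fentanyl lungs (112 to 271), whereas FP95 and FP96 had 1068 and 992, and the difference was -1.19 (SE 0.28).

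At 6 h the high value was on the side of fentanyl. The LD10 mouse FPB2 had 952, and the sham lungs had 226, 180.3, 182 and 182 (difference 0.34, SE 0.28). At 7 days, where no lung of the 7 was present, the sham values were 180.2, 232, 182 and 201, and the difference was 0.05. The high values of miR-152-3p thus occurred in sham at 0 h and 24 h and in LD10 at 6 h, in the 7 lungs of FP91 to FP96 and FPB2 and in no other.

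Without the 7 libraries the picture in the lungs changed for each member. Over 0 h, 6 h and 7 days, miR-148a-3p was higher after fentanyl by 0.44 (log2, SE 0.13, limma adjusted p = 0.037), where 5.39% of the 371 miRNAs were called. miR-148b-3p differed by 0.17 (SE 0.08, adjusted p = 0.23), and miR-152-3p by 0.06 (SE 0.09). For the term of dose miR-148a-3p remained called (limma adjusted p = 0.012, background 14.6%) and miR-148b-3p was not (adjusted p = 0.38). Dose and mouse number set ran together, as described below. With a term for the sets the call of miR-148a-3p for dose was lost, over all lungs (limma adjusted p = 0.33) and without the 7 (adjusted p = 0.070). Only sham at 0 h, LD10 at 6 h and LD50 at 6 h and 7 days held lungs of more than 1 set. That term rests on these few groups, so dose and set cannot be told apart by it. Without the 7 and with no such term, no member was called at a single time. Neither was any of the 371 miRNAs, with 23 to 35 at an unadjusted p under 0.05.

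The single values of miR-148a-3p without the 7 libraries were 0.29 at 0 h (SE 0.27), 0.42 at 6 h (SE 0.21) and 0.63 at 7 days (SE 0.21). Those of miR-148b-3p were 0.16, 0.07 and 0.28, and those of miR-152-3p -0.02, 0.15 and 0.05. Leaving out FP30, FP33 and FP38 as well, the difference of miR-148a-3p over these times was 0.44 (SE 0.12, limma adjusted p = 0.011) and that of miR-148b-3p 0.19 (SE 0.07, adjusted p = 0.096). The difference of miR-148a-3p was thus as large without FP30, FP33 and FP38 as with them.

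**Figure D3:**
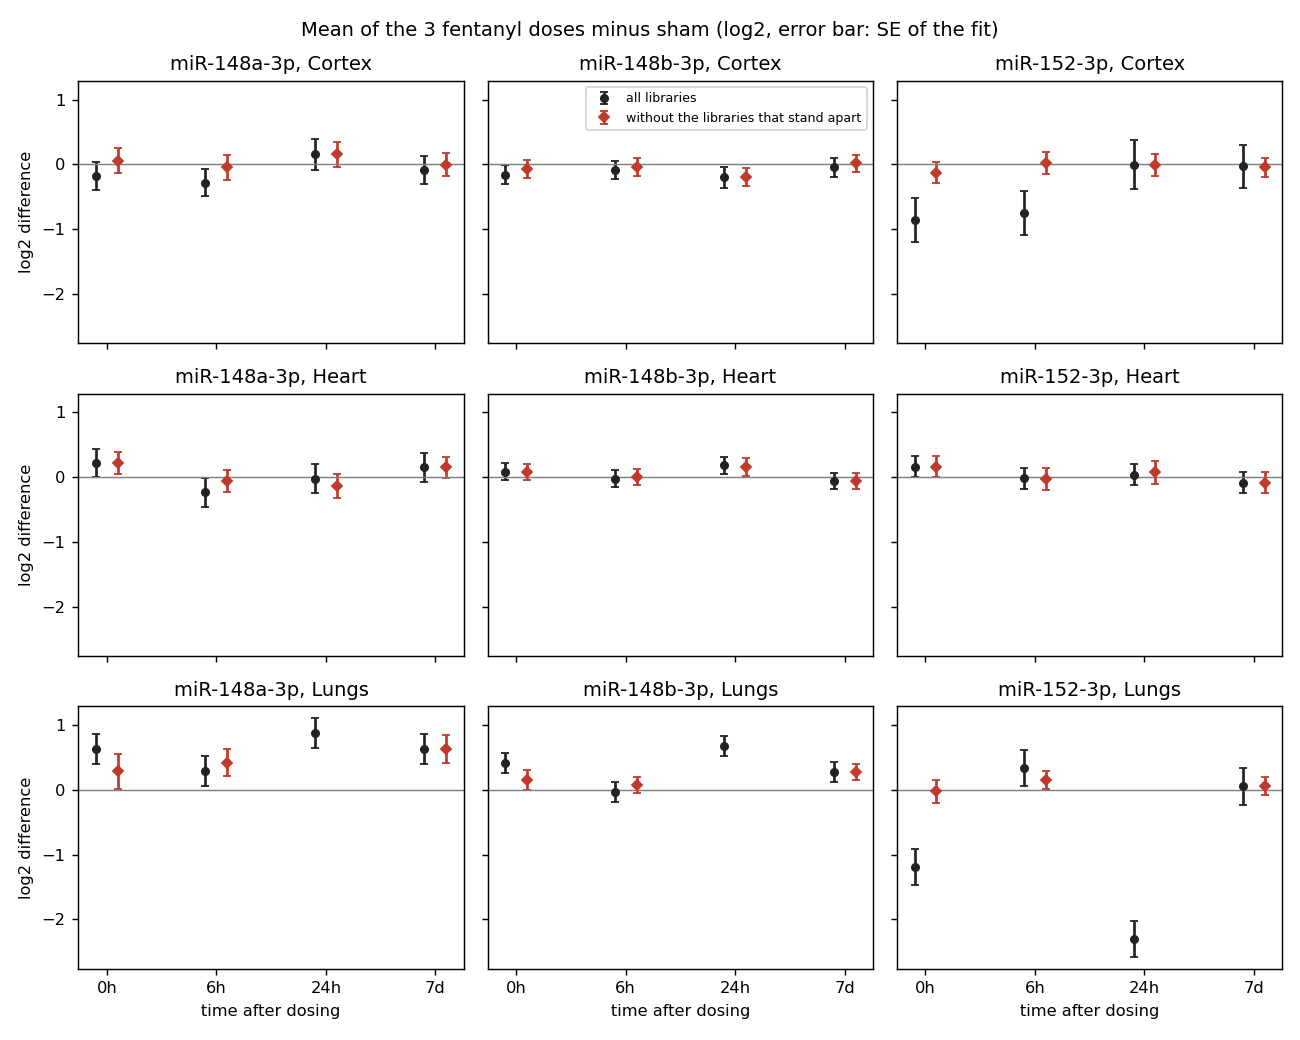
Log2 difference of the mean of the 3 fentanyl doses from sham at each time, with its standard error, for each member (columns) in each tissue (rows), over all libraries (black circles) and without the libraries that stood apart (red diamonds). miR-152-3p in the lungs goes from -1.19 to -0.02 at 0 h without them, and its value of -2.30 at 24 h has no counterpart, since no sham lung was left.

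The doses were compared next. At 24 h miR-148a-3p was higher than sham by 1.02 after HNLD (SE 0.28), 0.95 after LD10 and 0.64 after LD50 (limma adjusted p = 0.0037, 0.0072 and 0.068), over all libraries. miR-148b-3p was higher by 0.79, 0.67 and 0.58 (limma adjusted p = 0.0008, 0.0046 and 0.015). miR-152-3p differed from sham by -2.36, -2.29 and -2.26 (SE 0.34), much the same at each dose. Of all miRNAs, 36.7% were called at 24 h in HNLD, 31.5% in LD10 and 36.9% in LD50.

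Between the doses themselves, LD50 minus HNLD over all times was -0.43 for miR-148a-3p (SE 0.14, limma adjusted p = 0.063, background 6.20%) and LD10 minus HNLD was -0.26 (adjusted p = 0.48). Scaled by DESeq2's size factors, LD50 minus HNLD was -0.48 and was called (limma adjusted p = 0.027). Without the 7 libraries LD50 was lower than HNLD by the same amount and the difference was called (-0.43, SE 0.13, adjusted p = 0.027, background 8.63%). miR-148b-3p differed between LD50 and HNLD by -0.07 there. These fits of LD50 against HNLD kept the HNLD lungs of FP30, FP33 and FP38, which also stood apart. Among all lungs miR-148a-3p was highest in FP38, whose lung library also had the highest summed muscle markers. The difference between LD50 and HNLD without FP30, FP33 and FP38 is not given here. No dose difference was called in cortex or heart for any member.

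Dose and mouse number ran together in this series. All HNLD mice and all LD10 mice but FPB2 were numbered FP16 to FP58, the sham mice were 10 of FP59 to FP88 and FP91 to FP96, and LD50 held 13 lungs of FP59 to FP88 and 2 of FP16 to FP58 (FP29 and FP43). The contrast of HNLD or LD10 with sham, and that of LD50 with HNLD, can therefore not be told apart from the mouse sets. Median lung values of miR-148a-3p were 7319 in HNLD and 6416 in LD10 of the first numbers, 4628 in sham and 5880 in LD50 of the middle numbers, and 3413 in the 7 lungs (2307 to 3788). The 2 LD50 lungs of the first numbers had 3230.3 and 4828, below those medians of HNLD and LD10.

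Within FP59 to FP88, where sham and LD50 can be compared inside 1 set, LD50 differed from sham over 0 h, 6 h and 7 days by 0.32 for miR-148a-3p (log2, SE 0.12, limma adjusted p = 0.22), 0.23 for miR-148b-3p (SE 0.08, adjusted p = 0.20) and 0.01 for miR-152-3p (SE 0.10). None of these was called, where 1.35% of the 371 miRNAs were. Within FP16 to FP58, LD10 minus HNLD was -0.17 for miR-148a-3p (SE 0.14, limma adjusted p = 0.76) and 0.00 for miR-148b-3p. For miR-148b-3p the set medians ran from 684.5 in HNLD to 573 in the sham mice of the middle numbers and 407 in the 7 lungs (289 to 485).

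**Figure D4:**
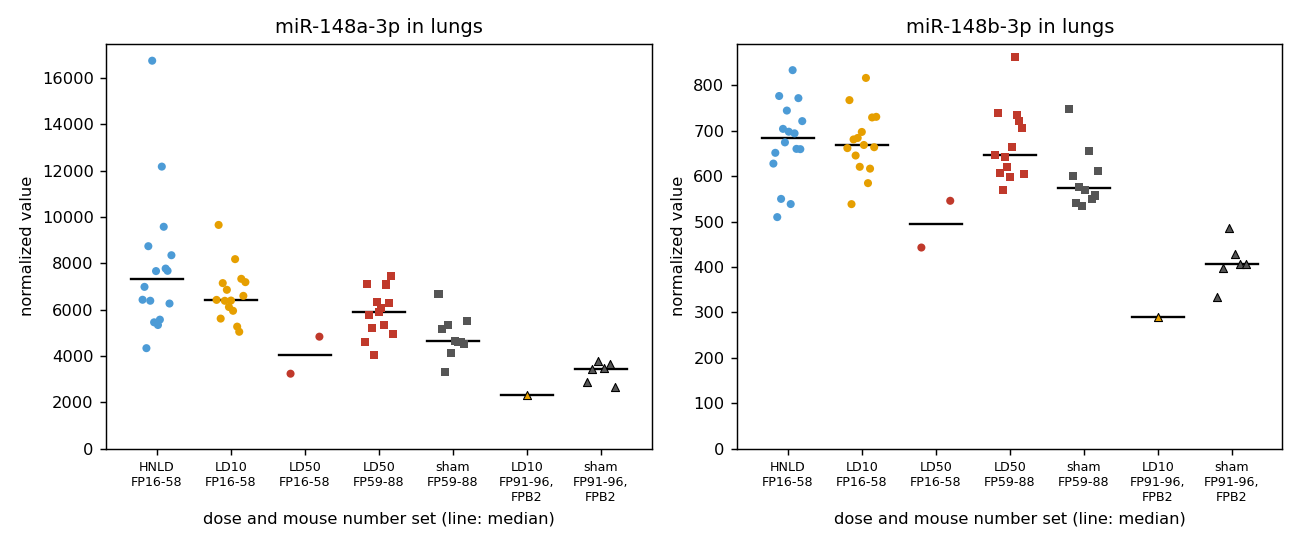
Normalized value (linear axis from 0) of miR-148a-3p and miR-148b-3p in the lungs by dose and mouse number set, 1 point per library, with a line at the median. For miR-148a-3p the line lies at 7319 in HNLD and 4628 in the sham mice of FP59 to FP88. The sham lungs of FP91 to FP96 lie between 2647 and 3788 for it, and FPB2 at 2307. For miR-148b-3p the sham lungs of FP91 to FP96 (334 to 485) lie below all those of FP59 to FP88 (534 to 747). The sets were defined after values had been seen. The share of the 371 miRNAs that separate these sham lungs is not given here. Between the 7 lungs and the other 56, miR-148b-3p overlapped.

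The 2 strands of the miR-152 hairpin parted in the 7 lungs. miR-152-3p was 969, 924, 1039, 1241, 1068, 992 and 952 in FP91 to FP96 and FPB2, whereas miR-152-5p was 54.3, 62.0, 72.4, 58.2, 46.2, 61.0 and 54.7. In the other 56 lungs miR-152-5p ranged from 66.3 to 140.9. With 0.5 added to each count, the ratio of 3p to 5p reads was 14.2 to 22.8 in the 7 lungs (median 17.2) and 1.45 to 2.81 in the others (median 2.01), with no overlap.

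Of the 115 hairpins with both strands measured in the lungs, 7 had a ratio of the strands that was higher in all of the 7 lungs than in any other (6.09%) and 8 a ratio that was lower in all (6.96%). The log2 shift of the miR-152 hairpin was 3.13, the fourth highest, against a median of -0.10. The ratios of miR-148a and miR-148b overlapped between the sets. Among the hairpins that were lower in all was miR-29a, whose median ratio of 3p to 5p was 29.5 in the 7 lungs and 121 in the others.

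The same mice had no such values in their other tissues. In the hearts of FP91 to FP96 and FPB2 miR-152-3p was 119 to 229, inside the range of all hearts, and its ratio to miR-152-5p was 1.13 to 2.57. In their cortices the ratio was 1.60 to 2.50, FP96 included. In FP85 and FP96, the cortices with few neuronal reads, both strands of miR-152 were high, with miR-152-5p at 165 and 173 against 14.3 to 33.2 in the others, and the ratio was 1.80 and 1.84.

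**Figure D5:**
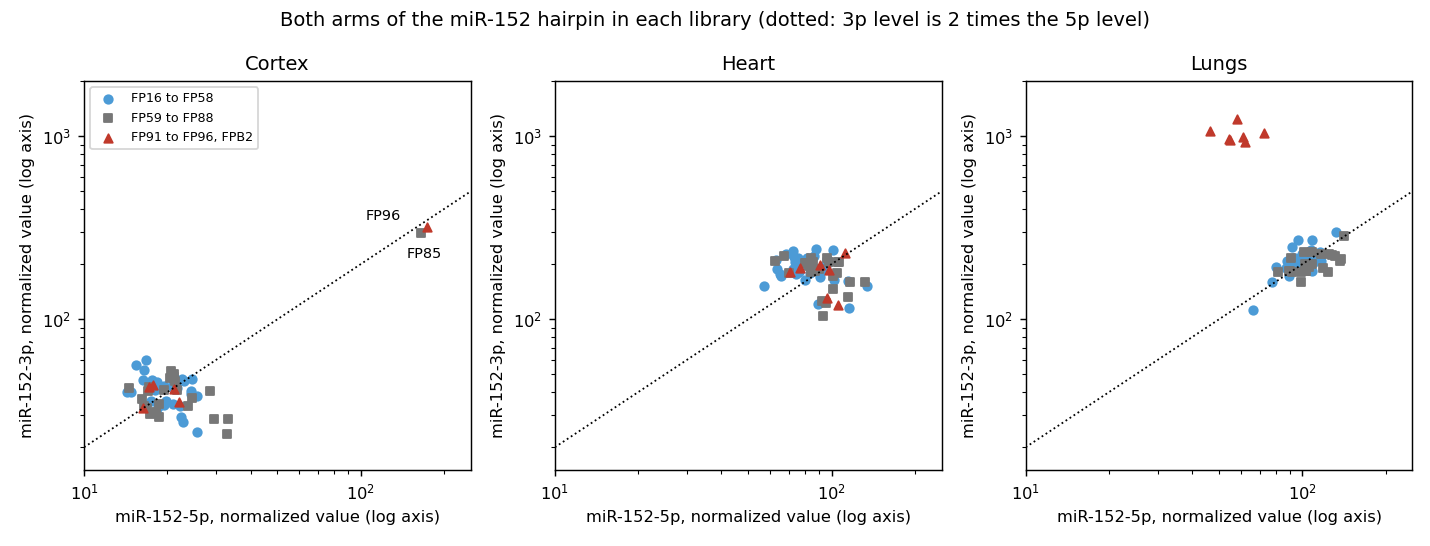
miR-152-3p against miR-152-5p (normalized values, log axes) in the libraries of each tissue, with a dotted line where the 3p strand is 2 times the 5p strand. The cortices of FP85 and FP96 lie far up along the line, whereas the 7 lungs lie above it, with 3p at 14.4 to 23.1 times 5p, and the other lungs between 1.45 and 2.81 times.

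Over the 371 miRNAs tested in the lungs, 38 were higher in all 7 of these lungs than in every other lung (10.2%) and 4 were lower in all (1.08%). miR-152-3p was among the 38, with a mean log2 difference of 2.31 that ranked 22 of 371 from the highest. miR-148a-3p (-0.97), miR-148b-3p (-0.74) and miR-152-5p (-0.81) were lower on average and overlapped, and the median of all miRNAs was -0.21. These values are given with no test, since the set was defined after the values had been seen, and the part of depth and of the cell type markers above in them was not tested.

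The balance within the family after fentanyl was tested in 28 comparisons with exact two-sided permutation tests of sham against fentanyl at each time, which can reach a p of 0.0011 with 12 libraries against 4. After adjustment 0 of the 28 were called (smallest adjusted exact p = 0.315), and 3 had an unadjusted p under 0.05. These were the log2 ratio of miR-148a-3p to miR-148b-3p in the cortex at 24 h (0.35 higher after fentanyl, exact p = 0.018), in the heart at 24 h (-0.21, exact p = 0.023) and in the lungs at 7 days (0.37, exact p = 0.034). In the lungs, the ratio of miR-148a-3p to miR-152-3p, described with no test, was higher after fentanyl by 3.18 at 24 h, by 1.82 at 0 h and by 0.59 at 7 days, and lower by 0.04 at 6 h. At 24 h all 12 fentanyl lungs, and at 7 days all 11, lay above the highest sham lung. Of the single miRNAs, 15.4% had all fentanyl lungs above all sham lungs at 24 h. How many ratios of other miRNAs did so at either time was not counted, so the separation is not a result about the family. All 4 sham lungs of 24 h and 2 of the 4 of 0 h were from the 7. No lung of the 7 was among those of 7 days. At 7 days the sham lungs were of FP59 to FP88 and all HNLD and LD10 lungs of FP16 to FP58. For these doses fentanyl and set can therefore not be told apart there.

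Of the 5p strands, miR-148a-5p was higher after fentanyl in the lungs at 24 h by 0.66 (log2, SE 0.21, limma adjusted p = 0.0075). Its 3p strand went in the same direction, and 26.7% of all miRNAs were called as higher in that contrast. All 4 sham lungs of 24 h are from the 7, so fentanyl and library set cannot be told apart there. miR-148b-5p differed by 0.32 (SE 0.13) and miR-152-5p by 0.77 (SE 0.16, no test). Without the 7 libraries miR-148b-5p was lower after fentanyl over 0 h, 6 h and 7 days by 0.40 (difference -0.40, SE 0.11, limma adjusted p = 0.023), whereas its 3p strand differed by 0.17. In that contrast 5.39% of miRNAs were called, and for HNLD and LD10 fentanyl cannot be told apart from the mouse sets. miR-152-5p differed by -0.04 in the same contrast. No 5p strand was called in cortex or heart.

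The miR-29 family was taken for comparison, since its members are known in human cells to target DNMT3A and DNMT3B. In the lungs at 24 h and over all libraries, 2 of its 3 members were called, in opposite directions, beside 26.7% of all miRNAs called as higher and 19.4% as lower. miR-29a-3p differed by 0.46 (SE 0.14, limma adjusted p = 0.0070) and miR-29c-3p by -0.63 (SE 0.21, adjusted p = 0.012), while miR-29b-3p was at -0.14 (adjusted p = 0.64). Without the 7 libraries none of the 3 was called over the remaining times, and none was called in cortex or heart.

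Likeness of pattern was measured as the SD of the log2 ratio of 2 miRNAs over the libraries of a tissue, where a smaller value means more alike; all points share the library and its scaling. Over all 63 lungs the miRNAs most like miR-152-3p were miR-30b-3p (0.386), miR-30b-5p (0.404) and miR-324-5p (0.456), and miR-148b-3p came in place 227 and miR-148a-3p in place 309. Over the 56 lungs without the 7 it was miR-148b-3p (0.198), followed by miR-152-5p (0.204) and miR-199a-5p (0.209), against a median of 0.468 over all miRNAs. The likeness of miR-152-3p to its family thus changed with those 7 libraries.

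miR-148b-3p in the lungs was most like miR-27b-3p with the 7 libraries (0.186) and without them (0.167). miR-148a-3p was most like miR-30e-3p (0.302), with miR-148b-3p next (0.306). In the heart miR-148a-3p was most like miR-30e-3p (0.226), miR-148b-3p most like miR-27b-3p (0.153), and miR-152-3p most like miR-24-3p (0.205) and miR-199a-3p (0.229). In the cortex miR-148a-3p was most like miR-148b-3p (0.282), but without FP85, FP96 and FP24 it was most like miR-25-3p (0.194). miR-148b-3p was most like miR-425-5p in the cortex (0.242) and miR-152-3p most like miR-93-5p (0.288), and without those libraries most like miR-411-5p (0.168) and miR-330-3p (0.224).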

How the data were processed

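Small RNA was sequenced by the authors (TruSeq Small RNA libraries, NextSeq 500), and reads were mapped to mature miRBase miRNAs (mm9; Bowtie 1.0.0 per the labels). The deposited values are a signal, read counts that the authors divided by 1 TMM factor per library with edgeR. Dividing by the smallest step of a library gave whole reads for all values (tolerance 0.1), and these recovered reads served the count models.

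Groups came from the labels, and 0 columns were left out. Main tests used limma 3.58.1 (R 4.3.3, trend) on log2(value + 1), fitting a mean for each of the 16 groups of a tissue to miRNAs of value 10 or more in at least 4 libraries, and Benjamini-Hochberg adjustment over all miRNAs tested in the tissue (threshold 0.05); log2(value + 1) understates changes of low miRNAs. Replicates are different mice. The fit was tested on simulated data. Balances were log2 ratios of reads + 0.5, compared with exact permutation tests (scipy 1.17.1). Of 9 planned comparisons between tissues, the 4 with miR-152-3p in the lungs were left without a test and out of the adjustment. Alternatives were edgeR 4.0.16, DESeq2 1.42.0, RLE scaling, other pseudocounts, no filter, a term for mouse sets and leaving out libraries. Some of these were chosen after seeing the data: leaving out all 10 lungs that stood apart, and the mouse-set term without the 7.

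The family and the comparison list (5p strands, miR-29) were chosen with earlier results of these data known. Named miRNAs are the members, their 5p strands, that list and the 3 most alike in each tissue; the hairpin miR-29a is on the list.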

Additional observations from a re-analysis of the deposited data

Results flagged for a closer look

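Of 138 sets of a member in 1 group of 4 libraries, 11 (7.97%) held a library whose distance from its nearest neighbor took up an unusually large part of the range of the group by Dixon's criterion; chance gives about 1 in 20. In the cortex, FP39 had the lowest miR-148a-3p of HNLD at 24 h (3100.1, the others 4651 to 4897) and FP24 the lowest of HNLD at 7 days (2041, the others 3844 to 4127). miR-148b-3p was low in FP74 (LD50, 0 h; 631, the others 969.7 to 1028) and high in FP66 (LD50, 24 h; 1047, the others 777 to 806). miR-152-3p was high in the sham cortices of FP96 (0 h; 320.0, the others 40.9 to 42.2) and FP85 (6 h; 296, the others 31.1 to 37.2), the libraries with few neuronal reads.

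In the heart, miR-148b-3p was low in FP20 (LD10, 0 h; 419, the others 522 to 538) and miR-148a-3p in FP67 (LD50, 0 h; 12873, the others 18198 to 18935). In the lungs, miR-152-3p was high in FPB2 (LD10, 6 h; 952, the others 199.6 to 209) and in FP77 (sham, 6 h; 226, the others 180.3 to 182), and miR-148a-3p in FP17 (LD10, 7 days; 9652, the others 5946 to 6416).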

How the results depend on the processing

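Of the 8 tests of miR-148a-3p and miR-148b-3p against sham at a time in the lungs, 2 were called. Counts were 0 without the 7 lungs of FP91 to FP96 and FPB2 (of 6 tests), 0 without all 10 lungs that stood apart (of 6), 0 with a term for mouse number sets, 2 of 6 with that term and without the 7, and 8 with the sham lungs of all times as reference. With the term for mouse sets the difference at 24 h was -0.10 for miR-148a-3p and -0.10 for miR-148b-3p (limma adjusted p = 1.0 for both, against 1.5e-05 to 0.013 without any 1 library); all 4 sham lungs of 24 h are in 1 set, which that fit compares with sham lungs of other times. With that term and without the 7, both members were called at 7 days (1.14 and 0.67, limma adjusted p = 0.039 and 0.029). Without the 7, only LD50 at 6 h and at 7 days held lungs of both remaining sets, each with 1 lung of FP16 to FP58. The term then rests on these lungs, FP29 and FP43, and fentanyl and set cannot be told apart by it. With the sham lungs of all times as reference, miR-148b-3p at 6 h was 0.27 in place of -0.03 (adjusted p = 0.047). That reference holds the 6 sham lungs of FP91 to FP96, where both members were low, and so carries the library set to every time. The shares of all miRNAs called in these settings are not given here.

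For the terms of dose and time in the lungs, 2 of 6 tests were called, 1 without the 7 libraries, 1 without all 10, and 0 with the term for mouse sets, with the 7 or without them. In the cortex, where 0 of 9 were called, edgeR called 1 (miR-152-3p for dose, beside 13.7% of all miRNAs). Of the 12 contrasts with sham in the cortex 0 were called, 2 with edgeR and 1 with DESeq2 (miR-148a-3p at 6 h, -0.67, DESeq2 adjusted p = 0.031), where 4 adjusted p-values were missing. DESeq2 also called miR-148b-3p over all times in the cortex (-0.22, DESeq2 adjusted p = 0.043). Of the 96 tests of a single dose against sham 5 were called, 12 with edgeR (miR-152-3p in the cortex at each dose at 0 h and 6 h, and miR-148a-3p there after LD50 at 6 h, beside 11.4 to 17.0% of all miRNAs; in the lungs miR-148a-3p after HNLD at 6 h, beside 11.3%, and both miR-148 members after HNLD and LD10 at 24 h, beside 34.8% and 29.9%), 0 without the libraries that stood apart (of 90), 0 with the term for mouse sets, 0 within FP59 to FP88 (of 24), and 1 without all 10 lungs (of 18; miR-148a-3p after HNLD at 7 days, 0.86, limma adjusted p = 0.036). The cause of these differences was not tested.

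Leaving out 1 library gave 0 to 2 calls for the cortex contrasts, 2 to 4 for the lung contrasts, 4 to 7 for single doses and 4 to 5 for the balance between tissues. It left the counts at 0 for the terms in cortex and heart, at 0 for the heart contrasts and the balance after fentanyl, and at 2 for the lung terms. For the lungs at 0 h it put the adjusted p of miR-148a-3p between 0.0185 and 0.41 and that of miR-148b-3p between 0.014 and 0.38 (limma). Under the other alternatives, 46 of 412 tested single values changed sign. Of these, 3 involved a call, the lung values at 24 h and 6 h given above, and 43 were called neither before nor after the change (values of -0.26 to 0.63 under the alternative, lowest adjusted p = 0.45). A further 14 tested values came past the threshold and 2 fell short of it with the same sign. Of 68 values with no test, 6 changed sign, all of miR-152-3p in the lungs or of the ratio of miR-148b-3p to it between heart and lungs.

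The tests between tissues were paired by mouse, and with no replicate block, unpaired over libraries, 4 of 5 were called as well. Within a tissue, no paired analysis was possible because each mouse gave 1 library and the groups held different mice. Depth limits miR-152-3p most, with as few as 27 reads in a lung library, and 10 lungs and 5 hearts held less than 0.25 of the median reads of their tissue.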
